A study of Mus musculus with 130 samples.

Results

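Ctse (ENSMUSG00000004552) and Tpm3-rs7 (ENSMUSG00000058126) were examined in mouse liver RNA. These 2 genes, of 35711 in the table of the strain panel and 35274 in the table of the diet experiment, were selected on a measured difference: both were higher in BXD than in AXB/BXA recombinant inbred strains. Every level given here by strain family or parent strain is therefore a description and was not tested. Liver RNA came from 130 male mice, per the labels. In the panel, each mouse had eaten chow for 4 weeks and then a diet with 2% carbonyl iron for 6 weeks. It held 114 strains in 115 libraries, with recombinant inbred strains of 4 families (56 BXD, 20 AXB/BXA, 4 BXH, 3 CXB) and 31 classical inbred strains. There was 1 mouse per strain, except for the inbred strain 129X1/SvJ with 2 mice. The 56 BXD strains include BXD24/TyJ-Cep290<rd16>/J, whose label names the rd16 allele of Cep290. In the diet experiment all 15 mice were C57BL/6J, with 3 mice on each of 5 diets: 50 ppm iron, 500 ppm iron, chow, 2% carbonyl iron, and 2% carbonyl iron with cellulose as the fibre source. All panel mice, C57BL/6J and DBA/2J included, were iron loaded, and no strain other than C57BL/6J was measured on another diet. With 1 mouse per strain, the difference between strains and that between mice of a strain cannot be told apart.

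A recombinant inbred strain descends from a cross of 2 inbred parents and is homozygous at each locus for the allele of one parent or the other. BXD strains descend from C57BL/6J and DBA/2J, AXB and BXA strains from A/J and C57BL/6J, BXH strains from C57BL/6J and C3H/HeJ, and CXB strains from BALB/cByJ and a C57BL/6 substrain. Ctse encodes cathepsin E, an aspartic protease of endosomes known from antigen-presenting cells, gastric mucosa and red cell precursors. Tropomyosins are coiled-coil proteins that lie along actin filaments, and Tpm3 is one of their genes. Tpm3-rs7 is named as a sequence related to Tpm3, and GENCODE tags it as a retrogene, that is, a copy made from a spliced transcript and inserted elsewhere in the genome.

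All positions are on GRCm38 in the GENCODE M21 annotation. Ctse spans chr1:131638306-131675505 on the plus strand and is protein coding. Tpm3-rs7 lies at chr14:113314608-113316754 on the plus strand as a single exon of 2147 bases. It is annotated as protein coding by GENCODE and as a pseudogene by RefSeq. Tpm3 lies on another chromosome, at chr3:90072649-90100902. The coding stretch shown here is where the reference transcripts of Tpm3-rs7 and Tpm3 can be told apart within the coding sequence. Both lines are 5′ to 3′ from the GENCODE M21 transcripts (GRCm38), 86 bases each, beginning at base 125 of the Tpm3-rs7 transcript and at base 249 of the Tpm3 transcript most like it. Capitals mark the bases that differ.
Tpm3-rs7: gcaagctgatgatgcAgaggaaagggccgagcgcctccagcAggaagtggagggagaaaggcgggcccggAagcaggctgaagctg
Tpm3: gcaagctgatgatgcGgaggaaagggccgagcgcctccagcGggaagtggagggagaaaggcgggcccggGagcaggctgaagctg

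These 3 bases were the only differences in the 747 bases of the annotated coding sequence. Over the whole alignment, which had gaps between 4 ungapped blocks, 2089 bases were identical and 13 differed (99.4% identity, gaps left out). Of the 2117 distinct 31-base words of the Tpm3-rs7 transcript, 1664 (78.6%) also occurred in Tpm3 transcripts. The authors' counts are estimates that can share a read between transcripts with the same words. Values of Tpm3-rs7 are therefore given beside those of Tpm3 below. The Ctse transcripts shared 10 of 3167 such words (0.316%) with any other gene, so this source of uncertainty hardly touched Ctse. Whole and fractional estimates were also counted in the deposited numbers. Ctse had a whole-number estimate, within 0.01, in 114 of 115 panel libraries. Tpm3 and Tpm3-rs7 both had fractional estimates in 80 of those libraries, and in 44 of the 80 the sum of the pair was whole. In the diet experiment both were fractional in 7 of 15 libraries, and in 3 of the 7 the sum was whole. Over all genes of the panel, 27.4% of values were fractional. Where the fractions of this pair came from was not tested.

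Library totals, in units of 1000000 counts, ran from 9.41 to 20.6 in the panel (median 12.3) and from 10.4 to 20.4 in the diet experiment (median 11.7). Tissue identity was checked with 8 hepatocyte genes, whose summed level in BXD libraries lay between 72158 and 144275 counts per 1000000 (CPM, scaled with TMM library factors). In the library labelled BXD65 the summed level of 4 Y-linked genes was 3.94 CPM, against 118 to 328 CPM in the other 114 panel libraries, which goes against its label as male. BXD65 had 19.3 transcripts per 1000000 (TPM) of Ctse and 0 TPM of Tpm3-rs7, and counts of strains are also given without it.

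In the parent strains of the BXD family, Ctse was high in one parent and near the limit of detection in the other. DBA/2J had 21.3 TPM of Ctse, from 477 counts (43.4 CPM before TMM scaling, exact binomial 95% interval 39.6 to 47.4). C57BL/6J had 0.0511 TPM, from 1 count (0.0881 CPM, exact interval 0.00223 to 0.491). The ratio of DBA/2J to C57BL/6J in CPM was 492, with an exact 95% interval of 87.9 to 19485 for counting error only. A/J, the other parent of the AXB and BXA strains, had 0.316 TPM from 6 counts. Among 18 cathepsin and aspartic protease genes compared in TPM, Ctse stood ninth in DBA/2J, between Ctss (29.1 TPM) and Ctso (15.4 TPM). It stood 17 of 18 in C57BL/6J. The lysosomal proteases Ctsl and Ctsb had the highest TPM of that list in both parents.

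Tpm3-rs7 showed the same order of parents. DBA/2J had 19.3 TPM, from 438.6 estimated counts, C57BL/6J had 0.183 TPM, from 4.25 estimated counts, and A/J was listed at 0. A few estimated counts were listed in mice of low level, here and in the diet experiment, where the sequence shared with Tpm3 leaves their origin uncertain. Tpm3 itself had 18.8 TPM in DBA/2J, 64.5 TPM in C57BL/6J and 51.9 TPM in A/J. Tpm3-rs7 accounted for 50.7% of the summed TPM of Tpm3 and Tpm3-rs7 in DBA/2J and for 0.282% in C57BL/6J.

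Across the 56 BXD strains, a gap split the levels of each gene, and it was wider for Tpm3-rs7 than for Ctse. Gaps in other genes were not measured. Ctse ran from 0 through a median of 0.661 to 34.3 TPM. The widest gap between neighbouring strains in log2 CPM (prior count 2, at least 5 strains on each side) was 2.22 and lay between BXD42/TyJ at 2.50 TPM and BXD74/RwwJ at 10.5 TPM. Of the 56 strains, 25 stood above that gap, up to BXD67/RwwJ at 34.3 TPM, and 31 stood below it. BXD21/TyJ at 1.57 TPM (32 counts) and BXD42/TyJ (56 counts) were the only strains below the gap with more than 1 TPM. Without BXD65, 24 strains stood above it.

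Tpm3-rs7 ran from 0 through a median of 0.513 to 32.98 TPM in the BXD strains. Its widest gap was 3.85 in log2 CPM, between BXD62/RwwJ at 0.957 TPM and BXD38/TyJ at 11.5 TPM, with 26 strains above and 30 below (29 without BXD65). The strains above it otherwise began at BXD100/RwwJ with 17.8 TPM and reached BXD85/RwwJ with 32.98 TPM. The inbred strains above the same gap ran from 18.1 TPM in NOD/ShiLtJ to 44.7 TPM in KK/HlJ, so most high strains of both kinds covered the same range.

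**Figure D1:**
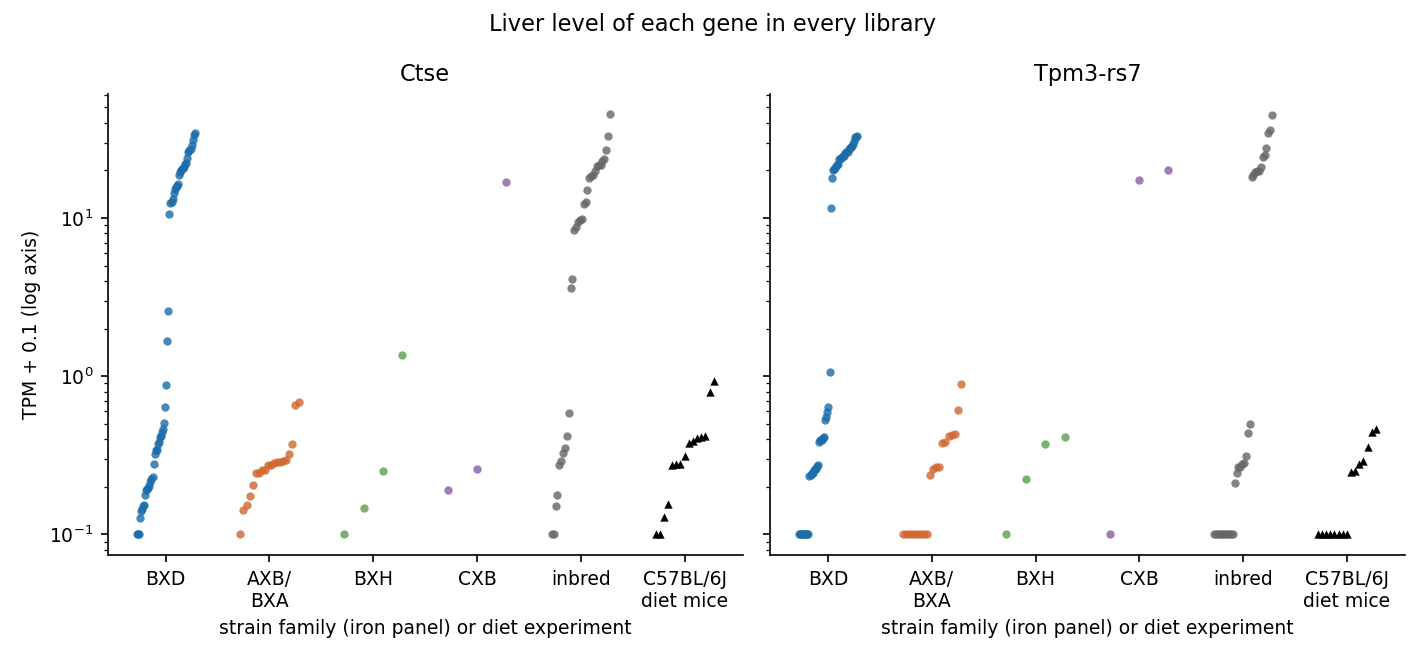
Level of Ctse (left) and Tpm3-rs7 (right) in every library, as TPM + 0.1 on a log axis, by strain family and, as triangles, in the 15 C57BL/6J mice of the diet experiment. Points are libraries in order of level within each family. BXD and inbred strains lie both above and below the gap of each gene, with RIIIS/J and NON/ShiLtJ (3.51 and 4.03 TPM) inside that of Ctse, and the AXB/BXA strains and the diet mice lie only below.

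The other families followed their parents for the most part. All 20 AXB/BXA strains were below both gaps: Ctse reached 0.587 TPM at most, in AXB4/PgnJ (median 0.173 TPM), and Tpm3-rs7 reached 0.788 TPM at most, in BXA2/PgnJ (median 0.148 TPM). The highest AXB/BXA strain therefore lay under the lowest BXD strain above the gap for both genes. C3H/HeJ had 0.225 TPM of Ctse and was listed at 0 for Tpm3-rs7, and all 4 BXH strains were below both gaps. Their Ctse levels were 0 TPM in BXH10/TyJ, 0.0466 in BXH14/TyJ, 0.1502 in BXH8/TyJ and 1.26 in BXH2/TyJ. BXH2/TyJ, with 41 counts, stood apart from the other 3. Their Tpm3-rs7 levels were at most 0.310 TPM.

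BALB/cByJ was high for both genes, with 19.7 TPM of each, and the 3 CXB strains showed 3 different patterns. CXB7/ByJ had 16.7 TPM of Ctse and 17.3 TPM of Tpm3-rs7. CXB2/ByJ had 0.161 TPM of Ctse and 20.0 TPM of Tpm3-rs7. CXB12/HiAJ had 0.0917 TPM of Ctse and was listed at 0 for Tpm3-rs7.

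The comparison that chose the genes can be given as a description. In BXD against AXB/BXA strains the fitted log2 difference was 5.69 for Ctse and 6.05 for Tpm3-rs7, the 12th and 10th highest of 13794 genes tested with edgeR. In that comparison 1606 genes (11.6%) were called at an adjusted p under 0.05, and nothing is read from the members' own place in it. The difference of mean log2 CPM, on which the low strains weigh more, was 2.93 for Ctse and 3.37 for Tpm3-rs7.

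Among the 31 inbred strains, 19 were above the Ctse gap and 12 below it, and 12 were above the Tpm3-rs7 gap and 19 below it. BTBR T<+> tf/J had the highest Ctse of the panel at 45.05 TPM, with 0.339 TPM of Tpm3-rs7. The 2 mice of 129X1/SvJ, the only repeat of a strain, had 32.8 and 26.7 TPM of Ctse, and 0 and 0.111 TPM of Tpm3-rs7, so the mice of this strain were on the same side of both gaps. RIIIS/J at 3.51 TPM (85 counts) and NON/ShiLtJ at 4.03 TPM (93 counts) had Ctse levels between the 2 BXD strains that bound the gap. For Tpm3-rs7 the inbred strains below the gap reached 0.399 TPM at most, in AKR/J, and no strain of the panel lay between 0.957 and 11.5 TPM.

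The strains with high levels of the 2 genes overlapped in part. Of the 56 BXD strains, 16 were above both gaps, 9 above the Ctse gap alone, 10 above the Tpm3-rs7 gap alone and 21 above neither. Without BXD65 these counts were 16, 8, 10 and 21 of 55. Spearman's rho between the log2 CPM of the 2 genes was 0.29 over the 56 strains. The substrains BXD48/RwwJ and BXD48a/RwwJ were alike in Tpm3-rs7, at 26.1 and 30.5 TPM, and differed in Ctse, at 15.8 and 0.282 TPM. Among inbred strains 8 were above both gaps (DBA/2J, BALB/cJ, BALB/cByJ, I/LnJ, KK/HlJ, NZB/BlNJ, PL/J and SEA/GnJ), 11 above the Ctse gap alone, 4 above the Tpm3-rs7 gap alone and 8 above neither. C57BLKS/J, a strain known to carry both C57BL/6J and DBA/2J genome, had 0 TPM of Ctse and 18.6 TPM of Tpm3-rs7. High levels were thus not limited to DBA/2J and the strains derived from it.

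**Figure D2:**
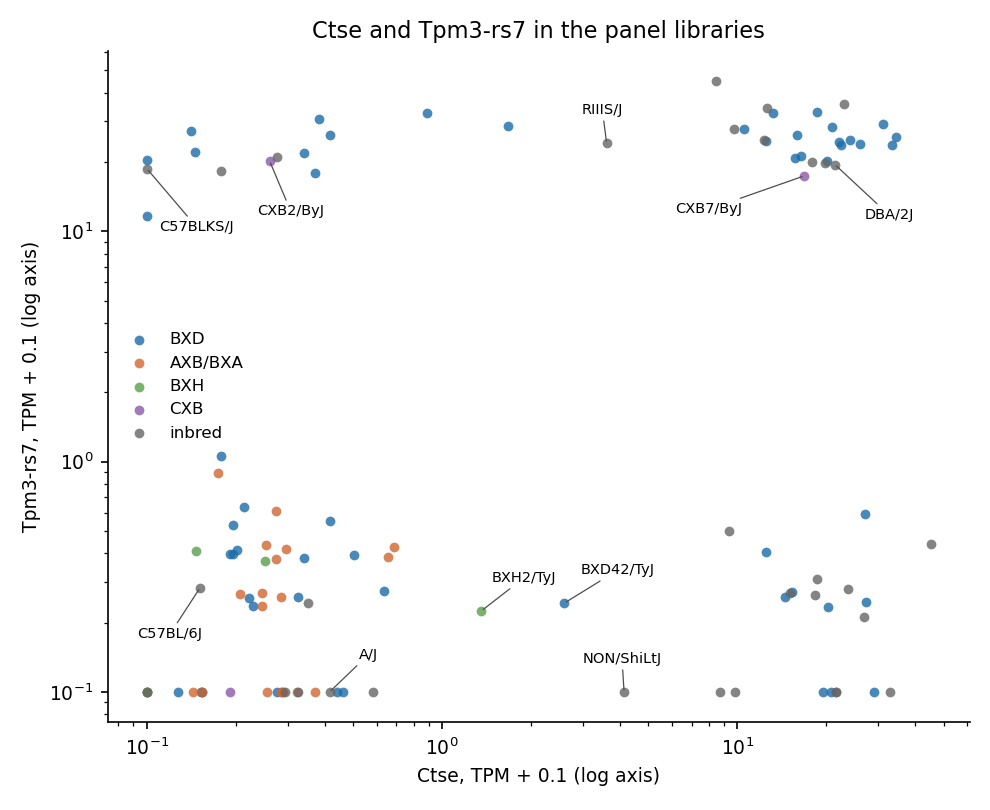
Tpm3-rs7 (vertical) against Ctse (horizontal) in the 115 panel libraries, both as TPM + 0.1 on log axes, coloured by family, with parents and other strains named in the text labelled. BXD strains occupy all 4 corners (16 high for both, 9 for Ctse alone, 10 for Tpm3-rs7 alone, 21 for neither), and the AXB/BXA strains only the lower left.

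BXD strains carry the suffix Ty or Rww in their names, which the labels do not explain, and the 2 sets offered a comparison that had not been used to choose the genes. Of 27 Ty strains 13 were above the Ctse gap and 10 above the Tpm3-rs7 gap. Of 29 Rww strains 12 and 16 were, or 11 and 16 of 28 without BXD65. Neither gene was called between the sets, where 5 of 13296 genes (0.0376%) were called. The log2 difference, Ty against Rww, was 0.02 for Ctse (SE 0.66, adjusted p = 0.993, edgeR quasi-likelihood test) and -0.69 for Tpm3-rs7 (SE 0.68, adjusted p = 0.762). With standard errors of this size a 2-fold difference was not detectable for either gene.

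Tpm3, the gene that Tpm3-rs7 resembles, was low in the strains in which Tpm3-rs7 was high. In the 26 BXD strains above the Tpm3-rs7 gap, Tpm3 lay between 18.3 and 34.1 CPM. In the 30 BXD strains below it, Tpm3 lay between 71.7 and 100.6 CPM, and the ranges did not overlap. The same held in the inbred strains, with 22.9 to 44.3 CPM of Tpm3 in 12 strains above the gap and 65.3 to 108.1 CPM in 19 below it. CXB7/ByJ and CXB2/ByJ, above the gap, had 30.8 and 23.2 CPM of Tpm3, and CXB12/HiAJ, below it, had 74.4 CPM. The AXB/BXA strains all lay between 70.4 and 96.8 CPM.

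The sum of both genes varied far less than either. It ran from 45.4 to 88.4 CPM in the BXD strains above the Tpm3-rs7 gap and from 71.7 to 101.2 CPM in those below it, so the ranges overlapped. The lowest sum, 45.4 CPM, belonged to BXD38/TyJ, the strain at the lower edge of the high Tpm3-rs7 levels. DBA/2J had a sum of 69.0 CPM, near C57BLKS/J at 64.0 CPM, and C57BL/6J had the highest sum of the panel at 108.4 CPM. Spearman's rho of Tpm3 with Tpm3-rs7 over the 56 BXD strains was -0.66. When the counts of the pair were added before the fit, the log2 difference between BXD and AXB/BXA strains was -0.04, against 6.05 for Tpm3-rs7 alone. How far reads of one gene were assigned to the other was not tested, since the reads were not used here.

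**Figure D3:**
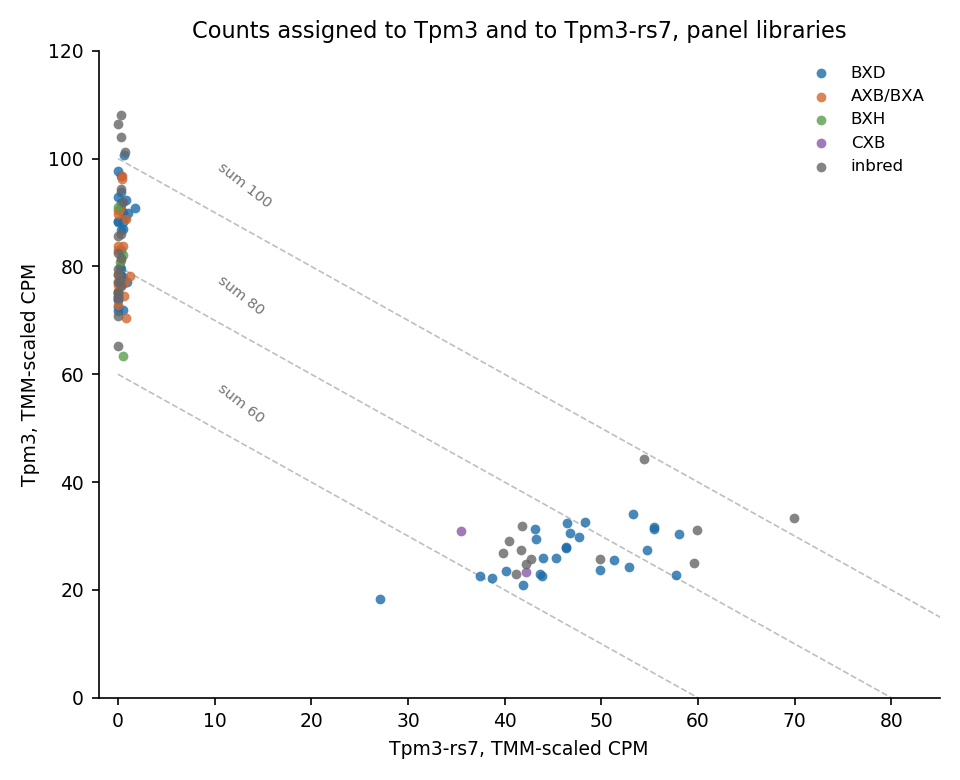
Tpm3 (vertical) against Tpm3-rs7 (horizontal) in the 115 panel libraries, in TMM-scaled CPM, coloured by family; dashed lines join points of equal sum. Libraries form one group along the vertical axis, with 63.3 CPM or more of Tpm3 and hardly any Tpm3-rs7, and one group with at most 44.3 CPM of Tpm3 and at least 27.1 CPM of Tpm3-rs7.

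Of the 50 genes most like Ctse across the BXD strains, 20 began near it on chromosome 1. Likeness was measured as Spearman's rho of log2 CPM over the 56 strains for the 13784 tested genes with a position, and is a description. Of those with the largest rho in size, 25 were on chromosome 1 and 20 of 50 (40%) began within 20 Mb of the start of Ctse, a window that holds 1.10% of all tested genes. Ranked by signed rho the share was 20%. The fifth highest rho, 0.66, was that of Pm20d1, which encodes a secreted enzyme that makes N-acyl amino acids and begins 0.159 Mb away. The lowest values were -0.66 for Cfhr2, a complement factor H related gene 8.17 Mb away, and -0.65 for Etnk2, which encodes an ethanolamine kinase, 1.73 Mb away. Of the 6 nearest tested genes, Rab7b, which encodes a small GTPase of late endosomes and begins 0.0504 Mb downstream, had a rho of -0.52. Slc41a1 had 0.19, Fam72a 0.03, Srgap2 0.20 and Ikbke -0.10. Neighbours of Ctse thus had rho values of both signs and near 0.

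The 4 highest rho values with Ctse belonged to genes annotated on other chromosomes. They were 0.75 for Gm6494, a processed pseudogene on chromosome 10, 0.75 for the glutamate receptor gene Grik2 on chromosome 10, 0.69 for the vomeronasal receptor gene Vmn2r25 on chromosome 6 and 0.67 for Gm8822, a processed pseudogene on chromosome X. Of these, Gm8822 shared 1574 of its 2317 words of 31 bases (67.9%) with Actr3, which begins 6.25 Mb from Ctse on chromosome 1. Gm6494 shared 106 of 2268 words (4.67%) with Gm38394, which begins 1.98 Mb from Ctse. For Grik2 and Vmn2r25 the gene with the most shared words was on neither chromosome 1 nor within the window. Whether reads from chromosome 1 were counted for the pseudogenes was not tested.

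Tpm3-rs7 gave a different picture from Ctse. None of the 50 genes most like it began within 20 Mb of Tpm3-rs7 on chromosome 14, a window with 41 tested genes, and the largest rho in that window was 0.33 in size, for the transporter gene Abcc4. Tested genes are sparse there. The nearest, the proteoglycan gene Gpc6, begins 3.61 Mb away and had a rho of 0.01. The nearest on the other side, Gm48976, begins 5.44 Mb away and had a rho of -0.05. Of the next nearest, Trim52 had -0.12, Spry2 0.11, Dct 0.07 and Tgds -0.04. By contrast, 26 of the 50 were on chromosome 3, the chromosome of Tpm3, and 19 (38%) began within 20 Mb of Tpm3, a window that holds 2.30% of all tested genes. That share was 18% when ranked by signed rho and 22% on log2(TPM + 0.1).

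The genes with the highest rho with Tpm3-rs7 were Rit1, a Ras-like GTPase gene on chromosome 3 (0.68), Rps3a2 (0.67), Tmod4, which encodes an actin-capping tropomodulin and lies on chromosome 3 (0.66), the lipid-antigen-presentation gene Cd1d2 (0.59) and the kinase gene Dclk2 (0.54), both also on chromosome 3. Rps3a2 is a processed pseudogene and the only one of the 50 on chromosome 14, 25.2 Mb from Tpm3-rs7. It shared 646 of its 762 words of 31 bases (84.8%) with Rps3a1, a ribosomal protein gene that begins 3.93 Mb from Tpm3 on chromosome 3. Rps3a1, which was singled out after its value was seen, had a rho of -0.62 with Tpm3-rs7, the opposite sign to its copy. Whether reads of Rps3a1 were counted for Rps3a2 was not tested. The lowest rho values were -0.76 for Scnm1, a splicing factor gene on chromosome 3, and -0.72 for Sirt5, a mitochondrial deacylase gene on chromosome 13. Near Tpm3, Rps27 had 0.44, 4933434E20Rik 0.20, Rab13 0.16, Jtb -0.17, Hax1 -0.16 and Ubap2l -0.07.

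**Figure D4:**
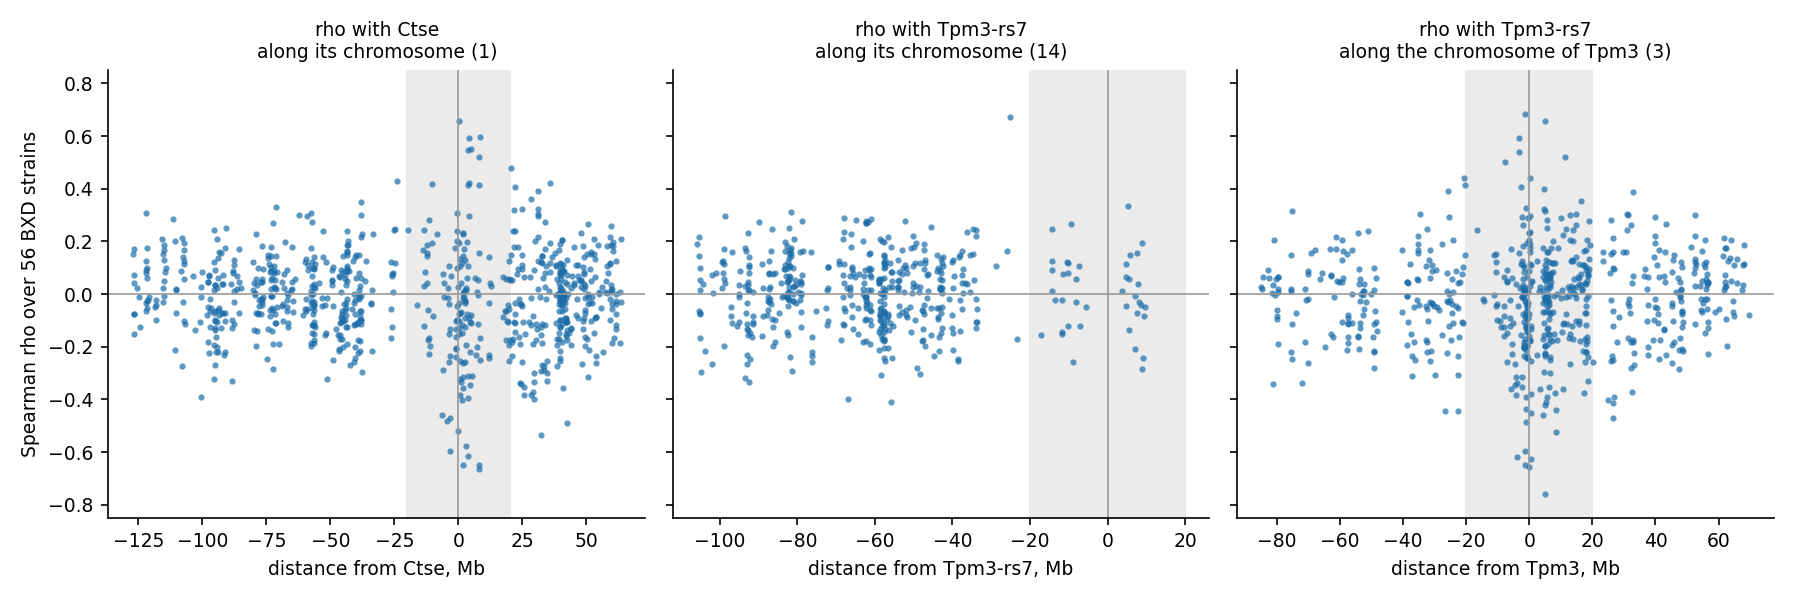
Spearman's rho over the 56 BXD strains of each tested gene with Ctse along chromosome 1 (left), with Tpm3-rs7 along chromosome 14 (middle) and with Tpm3-rs7 along chromosome 3 (right), against distance from the named gene in Mb; the grey band is 20 Mb to each side. Large values crowd around Ctse and around Tpm3, and the band around Tpm3-rs7 holds none above 0.33 in size.

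Summed markers of cell types had rho values of at most 0.26 in size with either gene. Over the 56 BXD strains the summed level of 9 marker lists had a rho between -0.15 and 0.15 with Ctse, and between -0.26 and 0.07 with Tpm3-rs7. Over all tested genes the median rho in size was 0.089 with Ctse and 0.096 with Tpm3-rs7. The largest in size with Tpm3-rs7 were stellate and smooth muscle (-0.26), B and T lymphocytes (-0.21) and exocrine pancreas (-0.20). For Ctse the lists of interest are gastric and gut epithelium (0.02), dendritic cells (-0.10), B and T lymphocytes (-0.05) and erythroid cells (-0.10). All 8 gastric and gut markers were found, and Gkn1, Gkn2, Muc5ac and Cdx1 had a median of 0. The summed level of the 8 was 1.80 to 7.94 CPM in BXD and 2.57 to 7.76 CPM in AXB/BXA strains. The erythroid sum was more variable, 3.76 to 1818 CPM in BXD and 4.54 to 745 CPM in AXB/BXA strains. In whole liver, more cells of a type and more RNA per cell cannot be told apart.

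In the diet experiment both genes stayed at the low level of C57BL/6J on every diet. Ctse counts were 4, 5 and 7 on 50 ppm, 6, 1 and 5 on 500 ppm, 1, 0 and 5 on chow, 6, 0 and 5 on 2% iron, and 18, 5 and 16 on 2% iron with cellulose. In TPM these ran from 0 to 0.826, under the lowest BXD strain above the gap in all 15 mice. Tpm3-rs7 was listed at 0 in 8 of 15 mice, and the other 7 had 3.43 to 8.17 estimated counts. Its highest level was 0.361 TPM. Mice with a value and mice at 0 occurred in every diet group for Tpm3-rs7.

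Both genes failed the filter on low counts, so the tests on diet come from the fit without that filter, in which neither gene was called in any of 6 contrasts. The share of all 23529 genes called there was 7.57% for 2% iron against 50 ppm, 5.93% for 2% iron against 500 ppm and 11.6% for 2% iron against chow. It was 0.289% for chow against 50 ppm, 0.217% for cellulose against the plain 2% diet and 0% for 500 ppm against 50 ppm. In the last of these contrasts 718 genes had an unadjusted p under 0.05 in edgeR. DESeq2 also called none there, while limma on log2(TPM + 1) called 3. None of the 12 tests of the members had an unadjusted p under 0.05 in that fit. Ctse on 2% iron with cellulose against 2% iron had one in the edgeR fit of these groups alone (p = 0.0389) and with limma on log2(TPM + 1) and log2(TPM + 0.1) (p = 0.00939 and 0.0316), and no adjusted p of these was under 0.05.

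Of the 6 contrasts run, the largest difference in either gene was in Ctse, with a log2 difference of 1.72 for 2% iron with cellulose against 2% iron (SE 0.84, adjusted p = 0.605, edgeR quasi-likelihood test without filter). Over the alternative settings of this contrast its adjusted p ran from 0.367 to 0.908. The 5 counts of one cellulose mouse were within the range of the 2% iron mice. For 2% iron against 50 ppm the log2 difference was -0.63 for Ctse (SE 0.90, adjusted p = 0.793) and 0.09 for Tpm3-rs7 (SE 1.55, adjusted p = 1). Over the alternatives these adjusted p-values ran from 0.689 to 1 and from 0.497 to 1. At these counts, a diet effect of a few fold was not detectable for either gene.

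Tpm3 was well measured in the same mice. It was 66.9, 67.1 and 69.3 CPM on 50 ppm, 66.1, 71.7 and 72.0 on 500 ppm, 61.4, 65.4 and 74.2 on chow, 78.5, 82.9 and 85.1 on 2% iron, and 85.1, 97.0 and 101.5 on 2% iron with cellulose. All 6 mice on a 2% diet lay above the other 9. Tpm3 rose on 2% iron by 0.28 (log2) against 50 ppm (SE 0.09, adjusted p = 0.0454, edgeR quasi-likelihood test) and by 0.29 against chow (SE 0.09, adjusted p = 0.0267). Against 500 ppm the difference was 0.23 (SE 0.09, adjusted p = 0.102) and was not called by edgeR, while limma on log2(TPM + 1) gave 0.53 (adjusted p = 0.0199). Of 13560 genes tested, 2127 (15.7%) were called in the first contrast and 3087 (22.8%) in the second. Both calls on Tpm3 were lost without the filter on low counts, at adjusted p = 0.109 and 0.0688. Tpm3-rs7 made up at most 0.996% of the summed TPM of the pair in any of these mice, so its low counts leave the value of Tpm3 almost untouched.

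**Figure D5:**
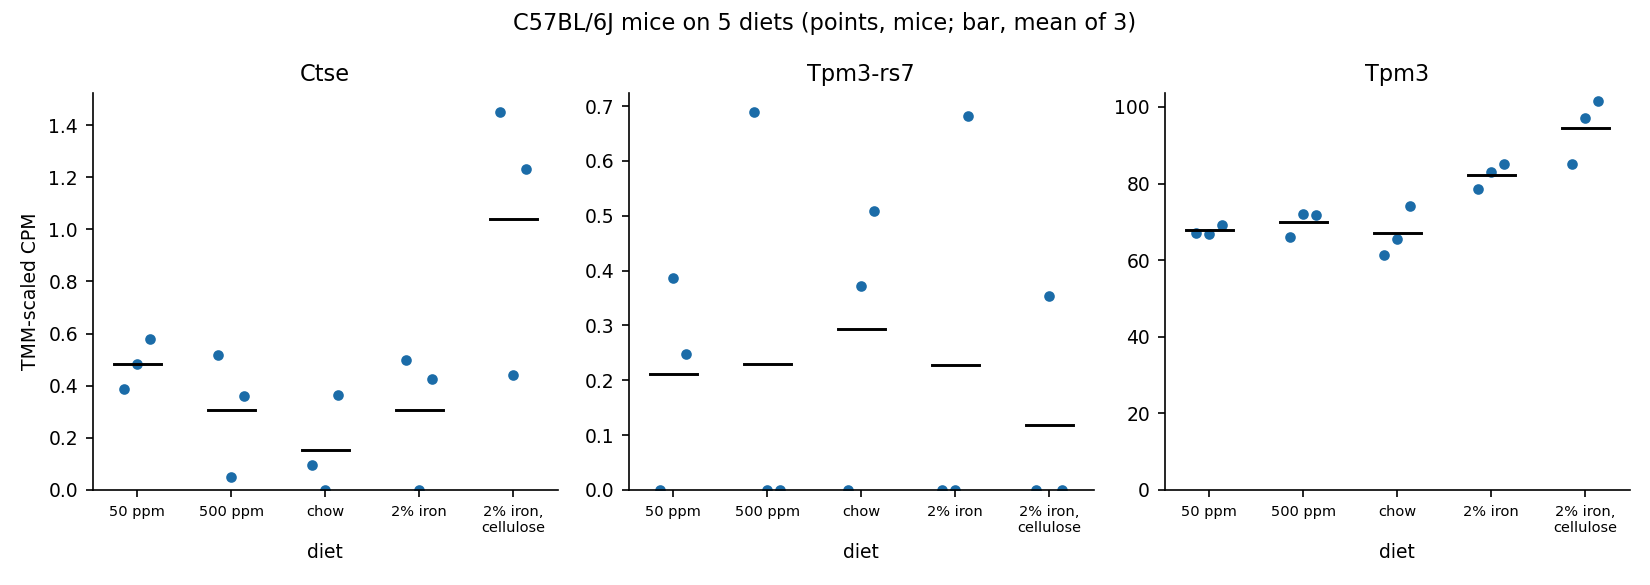
TMM-scaled CPM of Ctse, Tpm3-rs7 and Tpm3 in the 15 C57BL/6J mice by diet; points are mice, bars are means of 3 mice, and each panel has its own vertical axis from 0. Ctse and Tpm3-rs7 stay under 1.5 CPM on every diet, and Tpm3 is higher in the 6 mice on 2% iron diets than in the other 9.

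The genes of related function gave a mixed result on the iron diet, and Ctse and Tpm3-rs7 themselves could not be tested among them. For 2% iron against 50 ppm, 14 of 17 listed cathepsins and aspartic proteases were tested. Of these 6 rose, 1 fell and 7 were not called, beside 15.7% of all genes called. Their median log2 difference was 0.27, against 0.01 over all genes. Ctss, the cysteine protease of macrophages and dendritic cells that processes antigen, rose by 1.503 (SE 0.23, adjusted p = 0.0013), Ctsc by 0.81 and the aspartic protease Ctsd by 0.70. Ctsb, Ctsl and Ctsz rose by 0.36 to 0.56, and Ctsf fell by 0.37. Ctsl and Ctsf only just passed the threshold (adjusted p = 0.0498 for each, edgeR quasi-likelihood test). Of 9 inhibitors and lysosomal partners 7 were tested, and 1 rose, the asparaginyl endopeptidase gene Lgmn by 1.11 (adjusted p = 0.00449). Marker sums of other cells differed between the same mice. All 6 dendritic cell markers were found, none with a median of 0, and their sum was 8.53 to 10.8 CPM on 2% iron and 6.30 to 6.88 CPM on 50 ppm. The erythroid sum (8 of 9 markers found) was 323 to 479 CPM against 68.0 to 109.7 CPM. The lymphocyte sums, 7.68 to 15.4 and 6.49 to 8.99 CPM, overlapped. The part of these cells in the result was not tested.

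Of 20 tropomyosin and thin filament genes 16 were tested and 6 rose (median 0.30): Tpm1 by 0.66, Tpm3 by 0.28, Tpm4 by 0.74, the actins Actb by 0.40 and Actg1 by 0.76, and the non-muscle myosin heavy chain gene Myh9 by 0.42. Of these, Tpm3, Actb and Actg1 were close to the threshold (adjusted p = 0.0454, 0.0446 and 0.0469, edgeR quasi-likelihood test). The 6 stellate and smooth muscle markers, 2 of which (Acta2 and Cnn1) are also on this list, were all found, none with a median of 0. Their sum was 34.8 to 52.1 CPM on 2% iron and 22.97 to 30.4 CPM on 50 ppm, without overlap, and their part in the result was not tested. Of the 9 marker lists, 4 had sums wholly higher on 2% iron than on 50 ppm, 1 wholly lower and 4 overlapping. The hepatocyte list was among the 4, at 92143 to 97342 CPM on 2% iron and 80611 to 90375 CPM on 50 ppm. The lower list, exocrine pancreas, was barely separated, at most 6.571 CPM on 2% iron and at least 6.573 CPM on 50 ppm. With 3 mice per diet this separation was not tested, and its share over all genes was not counted. In all, 14 of 37 list genes were called beside 15.7% of all genes. The count was between 6 and 9 when any 1 of the 6 mice was left out, and 7 with limma on log2(TPM + 1). The share of all genes called in those fits was not counted, so the drop cannot be told apart from fewer calls in general. In BXD against AXB/BXA strains none of 36 tested list genes was called by edgeR, beside 11.6% of all genes. Of the 36, 8 had an unadjusted p under 0.05, DESeq2 called 3 and limma on log2(TPM + 1) called 2. The share of all genes called by DESeq2 and limma was not counted. Tpm3 differed by -0.50 (log2) and only just missed the edgeR threshold, and both other tools called it. Tpm3 was low where Tpm3-rs7 was high, and this comparison chose Tpm3-rs7, so the value of Tpm3 is a description.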

How the data were processed

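Liver RNA libraries were made with a stranded mRNA kit, per the labels' protocols. The tools named in the submitters' processing notes are kallisto 0.46 and the build mm10; further settings are not given in the sources used here. The authors deposited estimated counts per gene (26.5% of values in the diet table and 27.4% in the panel table are not whole numbers) and, for the same mice, TPM, which the deposited tables name as such. TPM summed to 1000000 per diet mouse and to 994114 to 997301 per panel mouse. Estimated counts were rounded to whole numbers for count tests. No duplicate library was averaged other than 129X1/SvJ, whose 2 mice were averaged in counts of strains. Identifiers were matched to GENCODE M21 (35612 of 35711 in the panel, 34845 of 35274 in the diet table).

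Genes were tested with edgeR 4.0.16 in R 4.3.3 (quasi-likelihood, TMM, filterByExpr, two-sided, Benjamini-Hochberg over all genes, with calls below an adjusted p of 0.05). One fit covered the 5 diets, and the compared strain families were fitted alone. Adjusted p-values are edgeR's where no tool is named. Nothing says that mice of a diet group were housed apart, so p-values measure the spread between these mice. DESeq2 1.42.0, limma 3.58.1, RLE factors, no filter, other pseudocounts and samples left out were alternatives. The count test and the ranking by rho were tested on simulated data. The transcripts were compared with words of 31 bases and a local alignment in Python 3.11.15 (numpy 2.4.6, pandas 2.3.3, scipy 1.17.1, matplotlib 3.10.9). Intervals and floors cover counting error only, since the reads carry no molecular identifiers.

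The members, the gene lists and the marker lists were chosen with earlier results of these data known. Genes are named by a rule: the members and Tpm3, the 5 highest and 2 lowest rho values with each member, the 3 nearest tested genes on each side, and called genes of the 3 lists. Other strains, the genes sharing words with a named gene, and Abcc4 were named after their values were seen. The 9 marker lists hold 63 genes: hepatocyte, erythroid, lymphocyte, dendritic, gastric and gut, exocrine pancreas, cholangiocyte, stellate and smooth muscle, and skeletal muscle.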

Additional observations from a re-analysis of the deposited data

Results flagged for a closer look

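BXH2/TyJ had 1.26 TPM of Ctse, far from the other 3 BXH strains, which had at most 0.1502 TPM. Its gap to the nearest of them was 0.881 of the range of the 4 strains. The screen covered 3 sets of values, and chance flags about 1 in 20 groups.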

How the results depend on the processing

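Under the alternative settings 19 values were labelled as moved and 1 as reversed, the difference in Ctse between Ty and Rww strains. Changes of sign in the members' diet differences are not in that count and are given here. No call on Ctse or Tpm3-rs7 in a diet contrast was gained or lost. The direction of these uncalled differences was not stable, and 6 of 12 changed sign under at least 1 alternative. The reference was the difference of mean log2 CPM, while some alternatives were fitted log2 differences. For Tpm3-rs7 on 2% iron against 50 ppm, the fit without filter gave -0.24 by the first measure and 0.09 by the second. A change of sign can therefore lie between measures of 1 fit. Ctse for 2% iron against 500 ppm ran from -0.58 to 0.57 (log2), with 6 of 12 alternatives positive. Tpm3-rs7 for 2% iron against 50 ppm ran from -1.04 to 0.16, with 6 of 12 positive. The log2 difference in Ctse between Ty and Rww strains was -0.0257 with 1 strain kept from each set of substrains, against 0.02. On log2(TPM + 1) with limma, Ctse differed by -0.23 for chow against 50 ppm and by 0.44 for cellulose against the plain 2% diet, against differences of mean log2 CPM of -1.20 and 1.48; a pseudocount of 1 exceeds these TPM values. With the counts of Tpm3 and Tpm3-rs7 added, the log2 difference between BXD and AXB/BXA strains was -0.0422. Tpm3-rs7 made up 60.3% of the pair in DBA/2J by estimated counts and 50.7% by TPM.

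The share of the genes most like Ctse that began within 20 Mb of it was 65% of the top 20, 23% of the top 100 and 20% of the top 50 by signed rho. The share of the genes most like Tpm3-rs7 within 20 Mb of Tpm3 was 65% of the top 20, 18% by signed rho and 22% on log2(TPM + 0.1). No setting put a gene of the top 50 within 20 Mb of Tpm3-rs7. The gap set by all 114 strains left 27 BXD strains above it for Ctse and 26 for Tpm3-rs7. For Ctse that gap was 0.906 (log2), between BXD55/RwwJ at 0.786 TPM and BXH2/TyJ at 1.26 TPM, against 2.22 among the BXD strains.

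List genes called for 2% iron against 50 ppm numbered 7 with limma and 6 to 9 without any 1 mouse, against 14. For BXD against AXB/BXA they numbered 3 with DESeq2 and 2 with limma. The share of all genes called in these fits was not counted, and the cause was not tested. The ranking by signed rho, the window around Tpm3, the added counts, and the adjusted p-values without filter on fewer groups or mice were chosen after seeing the data. A fit of 2 diet groups with the filter gave no value, since both genes fail it. No paired analysis was possible because the replicate numbers only order the mice within a group. The 1 mouse per strain, and the low counts of both genes in C57BL/6J, limit what could be detected. In the diet mice these counts were at most 18 for Ctse and 8.17 for Tpm3-rs7.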
